A study of Bos taurus with 10 samples.

Results

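The guanylate-binding proteins (GBPs) and the immunity-related GTPases (IRGs) are described here through 10 genes, chosen by symbol from the 21130 rows of an expression table: the GBP genes Gbp2, Gbp3, Gbp4, Gbp5, Gbp6 and Gbp7, and the IRG genes Irgm1, Irgm2, Igtp and Iigp1. Each symbol matched 1 row, so all 10 genes were found, with the gene identifiers 14469, 55932, 17472, 229898, 100702 and 229900 for the GBP genes and 15944, 54396, 16145 and 60440 for the IRG genes, in the order given. The table held RNA sequencing values in FPKM (fragments scaled by transcript length and library size) for 7 libraries labelled MSTN+/- and 3 labelled wild type (WT1, WT2 and WT3, for wild-type replicates 1 to 3). All 10 libraries were labelled as muscle of Bos taurus at 24 months of age, and MSTN is the gene of myostatin, which limits muscle growth. The labels do not say how the MSTN+/- genotype was made or whether each library is a separate animal. The p-values therefore cover the spread among libraries, part of which may be technical. They rest on a single variance per gene, which assumes that both groups vary alike. Most libraries are MSTN+/-, so where the wild-type libraries spread more, the p-values can come out too small.

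The contents of the table went against its labels in the species, and in part in the tissue. The descriptions of all 10 genes, and of 19415 of the 21130 rows, named Mus musculus, and 0 of the 10 gene identifiers occurred in a RefSeq gene table of cattle (assembly ARS-UCD2.0). Of 15 skeletal muscle markers, 9 did not reach 1 FPKM in 3 libraries, among them the creatine kinase gene Ckm between 0.14 and 1.02 FPKM across MSTN+/- libraries, against 0.13 to 1.07 FPKM in wild-type ones. The other 6 passed, among them Myh2, called higher, between 5.73 and 15.3 FPKM across MSTN+/- libraries, against 0.14 (WT1), 0.02 (WT2) and 0 FPKM (WT3). Mylpf was between 6.24 and 26.7 FPKM across MSTN+/- libraries, against 0.75 (WT1), 155 (WT2) and 125 FPKM (WT3), and Acta1 between 2.66 and 6.22, against 24.4 (WT1), 3.58 (WT2) and 2.87 FPKM (WT3). Mstn was listed at 0 in 7 of 10 libraries and reached at most 0.18 FPKM, so it could not check the genotype labels. The groups are therefore called by their labels, and no difference is tied to the genotype, to cattle or to muscle. The wild-type libraries also stood apart from one another. The pluripotency gene Pou5f1 was between 633 and 848 FPKM across MSTN+/- libraries, against 0.38 (WT1), 346 (WT2) and 533 FPKM (WT3). Of the other pluripotency markers, 9 were below both WT2 and WT3 in every MSTN+/- library, such as Utf1, between 1.51 and 65.5 FPKM across MSTN+/- libraries, against 0 (WT1), 344 (WT2) and 381 FPKM (WT3). Klf4 and Sox2 were not. Klf4, called higher, was between 348 and 616 FPKM across MSTN+/- libraries, against 29.8 (WT1), 96.6 (WT2) and 156 FPKM (WT3). Sox2, not called, was between 212 and 357 FPKM across MSTN+/- libraries, against 0.52 (WT1), 224 (WT2) and 202 FPKM (WT3). The collagen gene Col1a1 was between 969 and 2329 FPKM across MSTN+/- libraries, against 3017 (WT1), 110 (WT2) and 72.2 FPKM (WT3). Results are given against all 3 wild-type libraries, against WT2 and WT3, and against WT1.

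GBPs and IRGs are families of GTP-hydrolysing proteins that cells make after exposure to interferons, above all interferon gamma. In the mouse they gather on the vacuoles in which bacteria and protozoa such as Toxoplasma live, break these membranes, and open their contents to autophagy proteins and inflammasomes. The IRGs divide into regulators, which protect the membranes of the cell itself (Irgm1, Irgm2 and the product of Igtp, also called Irgm3), and effectors, which attack the vacuole (the product of Iigp1, also called Irga6). Several of these genes are near copies of one another and lie in clusters, so reads may have been split between copies, and the counting method is not given in the sources used here.

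All 10 genes were higher in the libraries labelled MSTN+/-, and 9 of them did not overlap between the groups. Differences on the log2(FPKM + 1) scale ran from 1.22 for Gbp4 to 4.34 for Gbp3, with a median of 3.16. All 10 passed the threshold of an adjusted p of 0.05 in limma (8 residual degrees of freedom, 14047 genes tested), and 0 were lower, also at an unadjusted p under 0.05. Of all genes tested, 44.6% passed this threshold in either direction, 31.8% higher and 12.8% lower, with a median log2 change of 0.17. The groups lay apart in the same way, with every MSTN+/- library above every wild-type one, for 25.2% of all genes tested. A difference of at least 3 on the log2 scale with an adjusted p under 0.05, a size chosen after the values were seen, was found for 7 of the 10 genes and for 1.61% of all genes tested. Only Gbp2 and Irgm1 would have passed the filter on low values in the wild-type libraries alone. The others passed it through the MSTN+/- libraries, where they were high, so these counts describe the genes and are no independent evidence. In RNA from whole samples, fewer cells of a kind and less RNA per cell cannot be told apart.

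**Figure D1:**
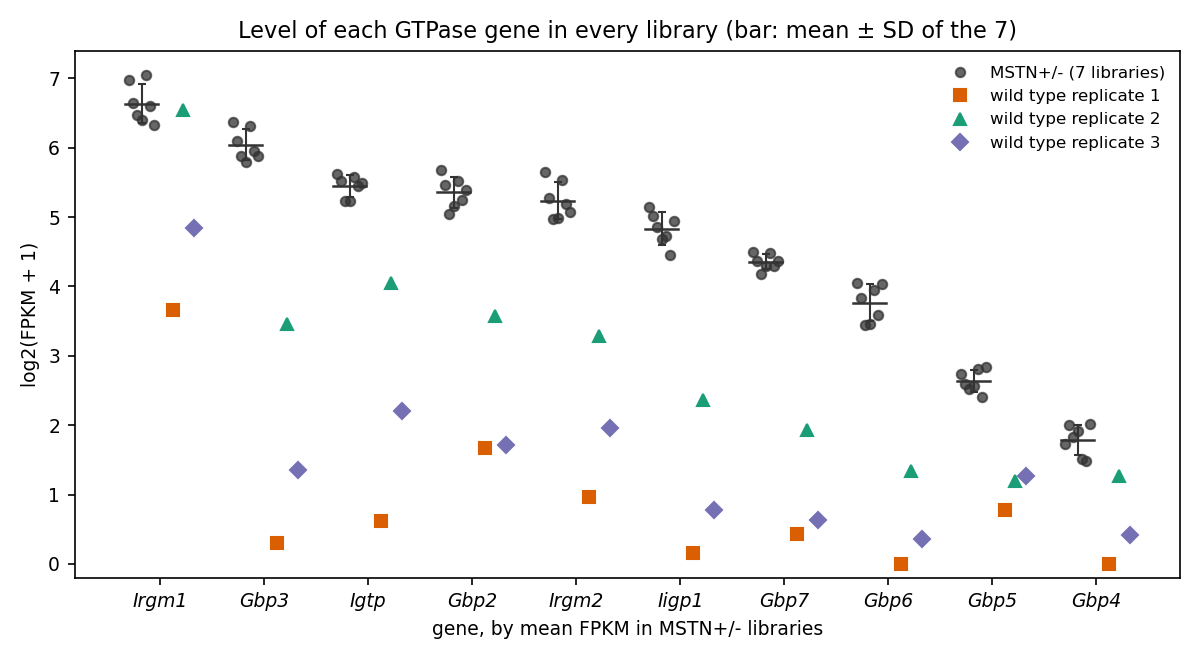
Level of each of the 10 GTPase genes as log2(FPKM + 1) in every library, with genes ordered by their mean in the MSTN+/- libraries. Grey points are the 7 MSTN+/- libraries with mean and SD, and coloured symbols are the 3 wild-type libraries. For 9 genes every grey point lies above every coloured symbol, and for Irgm1 the symbol of WT2 lies among the grey points.

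Among the GBP genes, Gbp3, whose protein is recruited to the Toxoplasma vacuole in mouse cells, had the highest level in the MSTN+/- libraries. It was at 54.6 FPKM in the lowest, 61.1 FPKM in the median and 82.1 FPKM in the highest MSTN+/- library, against 0.23, 9.95 and 1.56 FPKM in WT1, WT2 and WT3. The MSTN+/- libraries lay in a narrow band and the wild-type libraries spread widely below it. The mean was 65.6 ± 10.8 FPKM over MSTN+/- libraries (SD, n = 7), against 3.91 ± 5.27 FPKM over wild-type ones (SD, n = 3), and the log2 change was 4.34 ± 0.51 (SE, limma adjusted p = 0.000121). This was the 65th largest positive difference of 14047 genes.

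Gbp2, whose protein carries a lipid anchor and coats the Toxoplasma vacuole in mouse cells, was at 32.1, 40.8 and 50.3 FPKM in the lowest, median and highest MSTN+/- library, against 2.19, 10.9 and 2.29 FPKM in WT1, WT2 and WT3. WT1 and WT3 were nearly equal and WT2 was higher, but still below all MSTN+/- libraries. The log2 change was 3.04 ± 0.36 (SE, limma adjusted p = 0.000126).

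Gbp6 and Gbp7, whose proteins also reach the Toxoplasma vacuole in the mouse, had lower levels and similar differences. Gbp7 was at 17.1, 19.6 and 21.7 FPKM in the lowest, median and highest MSTN+/- library, against 0.35, 2.82 and 0.55 FPKM in WT1, WT2 and WT3, a log2 difference of 3.36 ± 0.27 (SE, limma adjusted p = 8.86e-06). It varied least of the 10 genes among the MSTN+/- libraries, with a coefficient of variation of 8.11%. Gbp6 was at 9.92, 13.3 and 15.6 FPKM in the lowest, median and highest MSTN+/- library, listed at 0 in WT1, and at 1.52 and 0.28 FPKM in WT2 and WT3, a log2 difference of 3.21 ± 0.27 (SE, limma adjusted p = 1.17e-05). For both genes the groups did not overlap.

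Gbp5 and Gbp4 were the least abundant of the 10. Gbp5, reported in the mouse to promote inflammasome assembly, was at 4.31, 5.02 and 6.18 FPKM in the lowest, median and highest MSTN+/- library, against 0.72, 1.30 and 1.40 FPKM in WT1, WT2 and WT3. Its wild-type libraries lay closer together than those of the other genes, with a wild-type mean of 1.14 ± 0.37 FPKM (SD, n = 3), and its log2 change was 1.56 ± 0.15 (SE, limma adjusted p = 2.71e-05). Gbp4 was at 1.81, 2.55 and 3.04 FPKM in the lowest, median and highest MSTN+/- library, listed at 0 in WT1, and at 1.40 and 0.34 FPKM in WT2 and WT3. Its log2 change was 1.22 ± 0.25 (SE, limma adjusted p = 0.00323), and the gap between the groups, 1.81 against 1.40 FPKM, was small. At such levels the added 1 in log2(FPKM + 1) understates the difference: with an added 0.1 the log2 change was 2.65 for Gbp4 and 5.01 for Gbp6. With quantile normalization it was 0.68 for Gbp4, still past the threshold.

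Among the IRG genes, the regulator Irgm1 was the most abundant of the 10 genes in all 10 libraries and the one whose groups overlapped. It was at 79.3, 95.7 and 131 FPKM in the lowest, median and highest MSTN+/- library, against 11.7, 92.0 and 27.8 FPKM in WT1, WT2 and WT3. WT2 was above 3 of the 7 MSTN+/- libraries, while WT1 and WT3 were below all of them. The mean was 100.1 ± 20.4 FPKM over MSTN+/- libraries (SD, n = 7), against 43.8 ± 42.5 FPKM over wild-type ones (SD, n = 3), and the log2 change was 1.62 ± 0.47 (SE, limma adjusted p = 0.0189). This call was lost without WT3, where the log2 change was 1.53 (limma adjusted p = 0.0700), and over its alternatives the adjusted p ran from 3.22e-05 to this value. The log2 change was 0.94 without WT1 (limma adjusted p = 0.0343) and 2.97 against WT1 alone.

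The other regulators did not overlap between the groups. Igtp, which is needed against Toxoplasma in the mouse, was at 36.4, 43.9 and 48.4 FPKM in the lowest, median and highest MSTN+/- library, against 0.53, 15.6 and 3.60 FPKM in WT1, WT2 and WT3. Irgm2, which in the mouse restrains the non-canonical inflammasome, was at 30.3, 35.5 and 49.3 FPKM in the lowest, median and highest MSTN+/- library, against 0.96, 8.79 and 2.90 FPKM in WT1, WT2 and WT3. In both genes WT2 was highest and WT1 lowest of the wild-type libraries. Their log2 changes were nearly equal, 3.16 ± 0.54 for Igtp (SE, limma adjusted p = 0.00120) and 3.16 ± 0.39 for Irgm2 (SE, limma adjusted p = 0.000165). Against WT1 alone the log2 change of Igtp was 4.83.

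The effector Iigp1 was at 20.9, 28.1 and 34.5 FPKM in the lowest, median and highest MSTN+/- library, against 0.12, 4.13 and 0.72 FPKM in WT1, WT2 and WT3. All 7 MSTN+/- libraries lay well above the highest wild-type library. The mean was 27.8 ± 4.56 FPKM over MSTN+/- libraries (SD, n = 7), against 1.66 ± 2.16 FPKM over wild-type ones (SD, n = 3), and the log2 change was 3.73 ± 0.38 (SE, limma adjusted p = 4.21e-05), next to Gbp3 the largest of the 10.

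The order of levels among the 10 genes held in most steps across the MSTN+/- libraries. FPKM is scaled by transcript length, so levels can be set side by side. By mean, the order was Irgm1, Gbp3, Igtp, Gbp2, Irgm2, Iigp1, Gbp7, Gbp6, Gbp5 and Gbp4. Irgm1 was above Gbp3 in 7 of 7 MSTN+/- libraries, and the steps from Irgm2 to Iigp1 and on down to Gbp4 were likewise in that order in 7 of 7. Igtp and Gbp2, at 42.8 ± 4.71 and 40.4 ± 6.32 FPKM (SD, n = 7), were in this order in 6 of 7 libraries, as were Gbp2 and Irgm2, with Irgm2 at 37.3 ± 7.31 FPKM. The ranges of these 3 genes overlapped, so their order cannot be told from the spread. Ranges also overlapped between Irgm1 and Gbp3, Irgm2 and Iigp1, and Iigp1 and Gbp7, although each pair kept its order in every library. Among all rows, Irgm1 lay at the 95.8th to 97.8th percentile of level in the MSTN+/- libraries, against the 73.9th, 96.1st and 85.8th in WT1, WT2 and WT3. Gbp3 lay at the 93.3rd to 95.9th percentile in the MSTN+/- libraries, against the 34.1st, 69.5th and 45.7th in WT1, WT2 and WT3.

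The 3 wild-type libraries differed widely in these genes, and in a common direction. WT2 was the highest of the 3 for 9 of 10 genes, the exception being Gbp5, which was slightly higher in WT3, and WT1 was the lowest for 10 of 10. The summed level of the 10 genes was 301 to 435 FPKM in the MSTN+/- libraries, against 16.8, 148 and 41.4 FPKM in WT1, WT2 and WT3. In WT1, 8 of the 10 genes were below 1 FPKM, and Irgm1 and Gbp2 were not. In WT2 all 10 genes reached 1 FPKM, and in WT3, 6 of 10 did. WT2 and WT3 were alike in pluripotency markers, whose median was 179 and 166 FPKM, yet 9 of the 10 genes were higher in WT2, by 3.03 times for Irgm2 to 6.38 times for Gbp3.

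**Figure D2:**
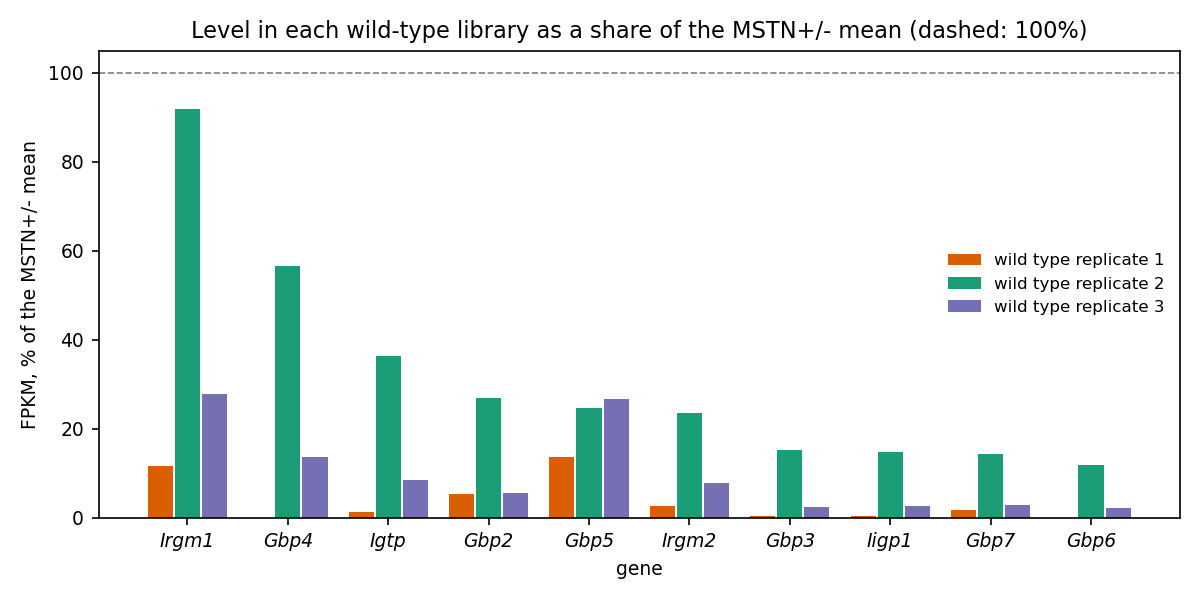
FPKM of each gene in each wild-type library as a percentage of its mean over the 7 MSTN+/- libraries, with the dashed line at 100%. In WT2 Irgm1 stands at 91.9% and Gbp6 at 11.9%, and in WT1 all 10 genes are at 13.7% or less.

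The mix of transcripts differed as well as its amount. Irgm1 made up 24.1% to 31.5% of the summed level of the 10 genes in the MSTN+/- libraries, against 69.6%, 62.0% and 67.1% in WT1, WT2 and WT3. The summed GBP level was 0.67 to 0.77 times the summed IRG level in the MSTN+/- libraries, against 0.26, 0.23 and 0.18 times in WT1, WT2 and WT3. Irgm1 made up most of the IRG sum in the wild-type libraries, so this ratio follows its share and is no separate result for the families. The median log2 change was nearly equal in both families, 3.12 for the GBP and 3.16 for the IRG genes. Relative to the MSTN+/- mean, WT2 had 91.9% of Irgm1, 56.5% of Gbp4 and 36.4% of Igtp, but 15.2% of Gbp3, 14.8% of Iigp1, 14.4% of Gbp7 and 11.9% of Gbp6. These shares are values of 1 library, with no replicate.

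Leaving out WT1 made the differences smaller, and setting the MSTN+/- libraries against that library alone made them larger. Without WT1, 10 of 10 genes were called higher with a median log2 change of 2.66, where 42.2% of all genes tested were called higher. Against WT1 alone, in a limma fit that assumes this library varies like the 7, 10 of 10 were called higher with a median of 3.85, where 33.7% of all genes tested were called higher. These comparisons share the MSTN+/- libraries. Gbp3 had a log2 difference of 3.64 without WT1 and 5.74 against it alone, and Iigp1 of 3.26 and 4.67. The same values were 0.94 and 2.97 for Irgm1, 2.32 and 4.83 for Igtp, and 1.41 and 1.85 for Gbp5. Of all calls, 71.3% were higher as deposited, 63.3% with TPM rescaling, 59.1% with library weights, 50.3% with median ratios and 42.7% with quantile normalization. Of all genes tested, 31.8%, 28.6%, 34.6%, 23.2% and 20.5% were called higher, in the same order. Under each of these, 10 of the 10 genes were called higher. Scaling also moved the median log2 change of all genes, which was 0.17 as deposited, 0.13 with TPM rescaling, -0.0044 with median ratios and -0.10 with quantile normalization, beside medians of the 10 genes between 2.79 with quantile normalization and 3.16 as deposited.

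**Figure D3:**
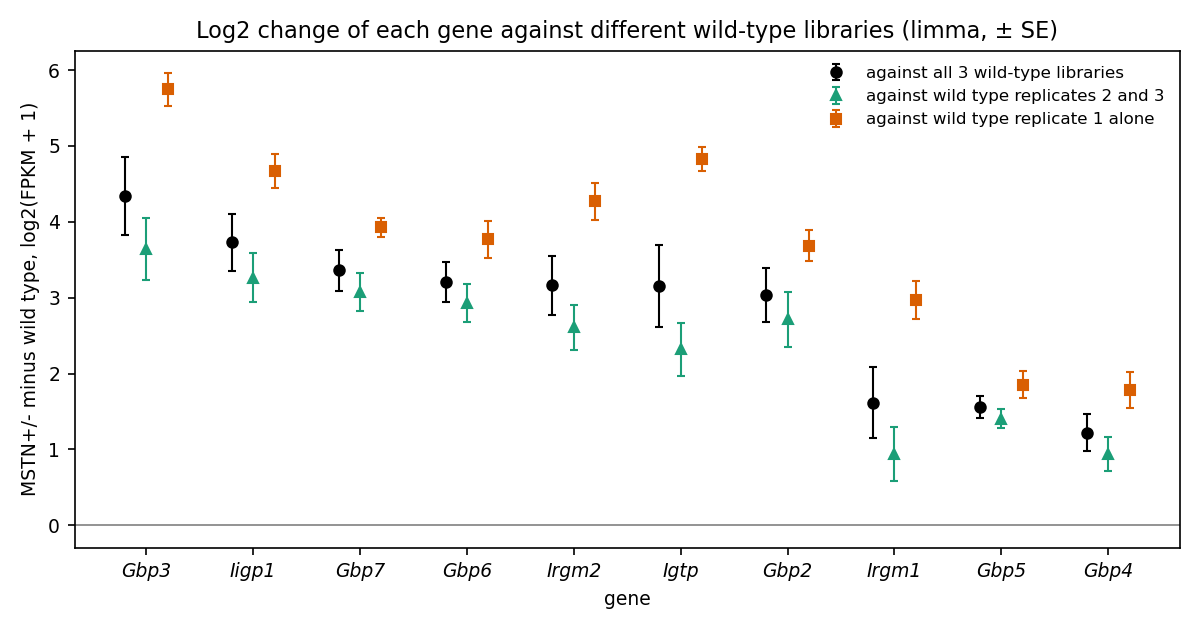
Log2 change of each gene, MSTN+/- minus wild type on the log2(FPKM + 1) scale, with its limma standard error. Black circles use all 3 wild-type libraries, green triangles WT2 and WT3, and orange squares WT1 alone. All values lie above 0, and Irgm1 ranges from 0.94 to 2.97.

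Markers of other cell types differed between the groups and among the wild-type libraries. The 10 fibroblast markers had medians of 130 to 281 FPKM in the MSTN+/- libraries, against 298, 25.5 and 10.2 FPKM in WT1, WT2 and WT3. The 12 pluripotency markers had medians of 3.16 to 60.3 FPKM in the MSTN+/- libraries, against 0.10, 179 and 166 FPKM in WT1, WT2 and WT3. The 10 GTPase genes were lowest in WT1, the wild-type library with the highest median of the fibroblast markers and the lowest of the pluripotency markers. Single fibroblast markers did not all follow the median. Of the 10, 5 were called higher and 0 lower, beside 31.8% and 12.8% of all genes tested. In 2 of these, Dcn and Lum, every MSTN+/- library was above every wild-type one, as in 25.2% of all genes tested. Dcn was between 169 and 324 FPKM across MSTN+/- libraries, against 24.3 FPKM in WT1, which was below WT2 for this gene. Lum was between 45.2 and 99.9 FPKM across MSTN+/- libraries, against 28.8 FPKM in WT1. The part of fibroblasts and pluripotent cells in the result was not tested. Some defining markers of immune cells were at or near 0. The leukocyte gene Ptprc was between 0 and 0.04 FPKM across MSTN+/- libraries, against 0 to 0.04 FPKM in wild-type ones, and the macrophage gene Adgre1 was listed at 0 in all 7 MSTN+/- libraries and at 0.48, 0.12 and 0.12 FPKM in WT1, WT2 and WT3. The 10 macrophage markers summed to 6.78 to 16.9 FPKM across MSTN+/- libraries, most of it Cd68, against 24.5 (WT1), 13.7 (WT2) and 13.7 FPKM (WT3), and other members differed. C1qa was listed at 0 in all 7 MSTN+/- libraries, against 4.41 (WT1), 0.28 (WT2) and 0.75 FPKM (WT3). Lyz2 was called lower, with at most 0.29 FPKM in MSTN+/- libraries, against 9.81 (WT1), 2.69 (WT2) and 3.54 FPKM (WT3), and Cd14 was called higher, with a log2 difference of 0.77. The 8 lymphocyte and natural killer cell markers with a row summed to 0.50 to 2.27 FPKM across MSTN+/- libraries, against 0.41 (WT1), 2.18 (WT2) and 1.90 FPKM (WT3). The 7 endothelial markers summed to 20.2 to 29.2 FPKM across MSTN+/- libraries, against 3.25 (WT1), 30.3 (WT2) and 27.4 FPKM (WT3), but from different genes. The receptor gene Tek, called higher, was between 15.8 and 23.6 FPKM across MSTN+/- libraries, against 0.66 (WT1), 2.24 (WT2) and 1.37 FPKM (WT3). Pecam1, not called, was between 0.09 and 5.75 FPKM across MSTN+/- libraries, against 0.06 (WT1), 26.4 (WT2) and 24.3 FPKM (WT3).

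Among the 7 MSTN+/- libraries the genes varied little, and several moved in the same libraries. The highest library was 1.26 times the lowest for Gbp7 and 1.68 times for Gbp4, with the other genes between. MSTN+/- replicate 1 was the highest of the 7 for 7 genes, and 9 of 10 genes were above their own mean of log2(FPKM + 1) there. Replicate 2 was also above this mean for 9 of 10 genes, replicate 5 for 8, replicate 7 for 7, replicate 3 for 2, replicate 4 for 1 and replicate 6 for 1. Gbp4 went its own way: it was below its mean in replicates 1 and 5 and highest in replicate 7, where Irgm1 was lowest. Iigp1 was highest in replicate 1 and, unlike Irgm1, Irgm2 and Igtp, below its mean in replicate 5. The median of the pluripotency markers was lowest in replicates 5 and 1, at 3.16 and 11.7 FPKM, and highest in replicate 4, at 60.3 FPKM. The summed level of the 10 genes was 416, 435 and 301 FPKM in those libraries. In replicates 7, 6, 3 and 2 the marker median was 13.9, 21.7, 29.1 and 36.7 FPKM, and the summed level was 329, 329, 307 and 364 FPKM. Whether the marker levels play a part in this spread was not tested.

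**Figure D4:**
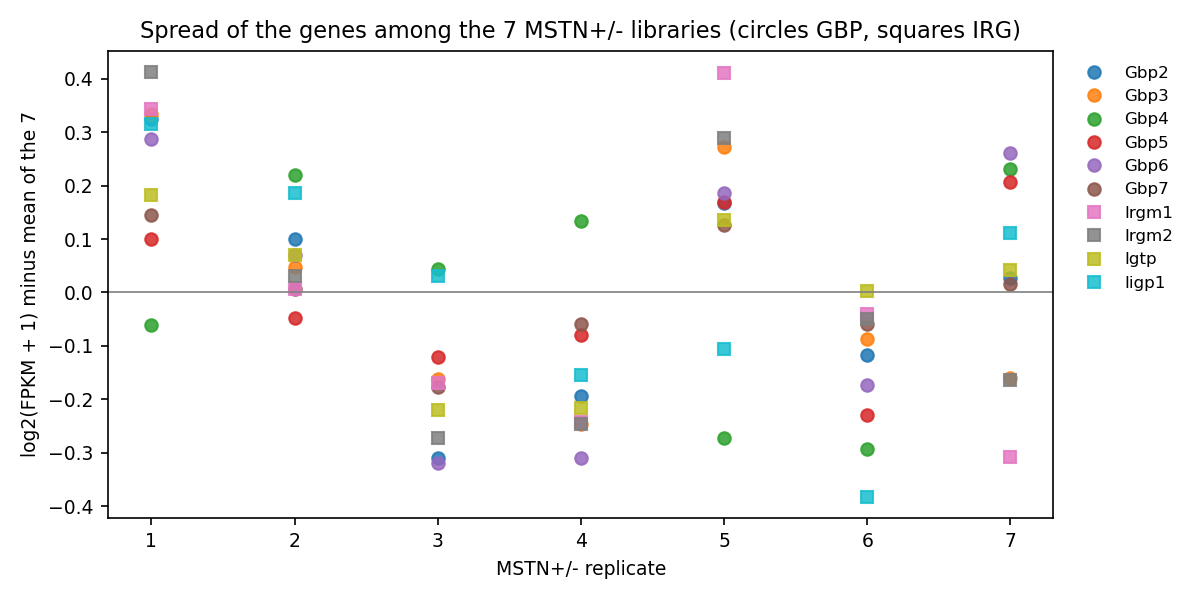
Each gene's log2(FPKM + 1) in the 7 MSTN+/- libraries minus its own mean over the 7, with circles for GBP and squares for IRG genes. In replicate 1, 9 of 10 genes lie above 0, and in replicates 4 and 6, 9 of 10 lie below 0.

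Other genes of the same families were mostly higher too. Of 17 listed, 16 had a row and 12 were tested: 11 were higher, 0 lower (0 also at an unadjusted p under 0.05, limma), with a median log2 change of 2.63. Over all genes tested 31.8% were higher and 12.8% lower. Tgtp2, the gene of a vacuole-binding effector IRG, was between 18.4 and 27.5 FPKM across MSTN+/- libraries, against 0.33 (WT1), 0.84 (WT2) and 0 FPKM (WT3), a log2 difference of 4.18 ± 0.18 (SE, limma adjusted p = 1.48e-07). It is a near copy of Tgtp1, so the split of reads between them is uncertain. Ifi47, an effector IRG gene, was between 25.3 and 46.0 FPKM across MSTN+/- libraries, against 0.74 (WT1), 1.96 (WT2) and 0.40 FPKM (WT3), a log2 difference of 4.10 (limma adjusted p = 8.24e-07). Gm4951 averaged 14.9 ± 3.11 FPKM in MSTN+/- libraries (SD, n = 7), against 0.40 ± 0.37 FPKM in wild-type ones (SD, n = 3) (limma adjusted p = 7.83e-07). In these 3 genes all wild-type libraries stayed below 2 FPKM. The untested Gbp8, Gbp10, Gbp11 and Irgc1 stayed below 1 FPKM in all 10 libraries, and F830016B08Rik was not called, with a log2 difference of 0.27 (limma adjusted p = 0.674), but was called higher without WT2 and against WT1 alone, while its log2 change turned to -0.51 without WT1 and -0.18 with quantile normalization, not called in either. Among the 11, the call of Irgq (log2 change 0.69, limma adjusted p = 0.0393) was lost without WT2 (adjusted p = 0.182), without WT3 (adjusted p = 0.191), without any single MSTN+/- library and under all 3 scalings. Against WT1 alone its log2 change was -0.14 (adjusted p = 0.398). Gm4841 (log2 change 0.59, limma adjusted p = 0.00933) was not called against WT1 alone (adjusted p = 0.0781), with quantile normalization (adjusted p = 0.605) or with library weights (adjusted p = 0.141).

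Of the ligands that induce GBPs and IRGs, only interferon gamma and interferon beta were looked up, and the genes of both were hardly detected. Other interferon genes were not examined. Ifng, the gene of interferon gamma, reached at most 0.08 FPKM in MSTN+/- libraries and was listed at 0 in WT1, WT2 and WT3. Ifnb1, the gene of interferon beta, was between 0 and 0.14 FPKM across MSTN+/- libraries, against 0 (WT1), 0 (WT2) and 0.13 FPKM (WT3). Depth per gene is unknown here, so no limit can be set on either. Both kinds of receptor gene were present. Ifngr1, a chain of the interferon gamma receptor, was between 15.8 and 22.5 FPKM across MSTN+/- libraries, against 13.1 (WT1), 3.73 (WT2) and 2.37 FPKM (WT3), a log2 difference of 1.64 (limma adjusted p = 0.00429) that was 0.43 and not called against WT1 alone (limma adjusted p = 0.0825). Its partner Ifngr2 was between 22.2 and 32.2 FPKM across MSTN+/- libraries, against 36.7 (WT1), 13.3 (WT2) and 6.39 FPKM (WT3) (limma adjusted p = 0.0836). It was called higher without WT1 (limma adjusted p = 0.000101), while its log2 change against WT1 alone was -0.38 (limma adjusted p = 0.0950). Ifnar1, a chain of the type I interferon receptor, averaged 16.2 ± 0.91 FPKM in MSTN+/- libraries (SD, n = 7), against 16.1 ± 1.78 FPKM in wild-type ones (SD, n = 3) (limma adjusted p = 0.944), and its partner Ifnar2 averaged 36.7 ± 5.19 FPKM in MSTN+/- libraries, against 14.5 ± 9.62 FPKM in wild-type ones (limma adjusted p = 0.00274). Its log2 change was 1.45, and 0.50 against WT1 alone (limma adjusted p = 0.0474).

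The receptor kinases did not move as a set. Jak1 was between 33.8 and 39.3 FPKM across MSTN+/- libraries, against 59.9 (WT1), 19.8 (WT2) and 15.6 FPKM (WT3), and was not called (limma adjusted p = 0.306). Its direction turned with the wild-type library: the log2 change was 0.98 without WT1 and -0.73 against WT1 alone, past the threshold in both. Jak2 was between 7.25 and 9.44 FPKM across MSTN+/- libraries, against 7.86 (WT1), 1.76 (WT2) and 1.37 FPKM (WT3), a log2 difference of 1.24 (limma adjusted p = 0.0134) that was 0.05 against WT1 alone (limma adjusted p = 0.806), and whose call was also lost without WT2 (adjusted p = 0.0730), without WT3 (adjusted p = 0.0745) and with quantile normalization. Tyk2, between 8.76 and 11.1 FPKM across MSTN+/- libraries, against 6.38 to 8.77 FPKM in wild-type ones, was not called (limma adjusted p = 0.0906), and was called higher against WT1 alone, with a log2 difference of 0.54.

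The transcription factors of interferon signalling were mostly higher. Stat2 and Irf9, which act together in the type I interferon response, had log2 changes of 1.95 and 1.82 (limma adjusted p = 0.00157 and 0.000130). Irf7, a factor that amplifies the type I response, was between 148 and 267 FPKM across MSTN+/- libraries, against 0.88 (WT1), 29.3 (WT2) and 5.46 FPKM (WT3), a log2 difference of 4.82 ± 0.63 (SE, limma adjusted p = 0.000243). Irf2 was between 12.7 and 14.6 FPKM across MSTN+/- libraries, against 7.79 (WT1), 1.57 (WT2) and 0.60 FPKM (WT3), with WT1 here the highest, a log2 difference of 2.15 (limma adjusted p = 0.00191) that was 0.74 against WT1 alone. Irf1, the main factor induced by interferon gamma, differed less: it was between 19.7 and 25.5 FPKM across MSTN+/- libraries, against 10.6 (WT1), 18.3 (WT2) and 16.3 FPKM (WT3), a log2 difference of 0.51 (limma adjusted p = 0.0242). Its log2 change was 0.29 without WT1 and 0.94 against WT1 alone. The call was lost when libraries were weighted or scaled by median ratios, and over its alternatives the adjusted p ranged between 0.000939 and 0.0933. The 2 signalling lists also hold genes of receptors, kinases and inhibitors, so their counts mix directions of action. Of 12 interferon gamma signalling genes tested, 6 were higher and 0 lower (1 lower at an unadjusted p under 0.05, Ptpn2, limma), with a median log2 change of 0.69. Without WT1, 10 were higher and 2 lower, the phosphatase genes Ptpn2 and Ptpn6. Of 8 type I signalling genes tested, 6 were higher and 0 lower (0 lower also at an unadjusted p under 0.05, limma), with a median of 1.63. With all libraries, 31.8% of all genes tested were higher and 12.8% lower. Without WT1, 42.2% were higher, and 4449 of 13965 genes tested were lower.

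**Figure D5:**
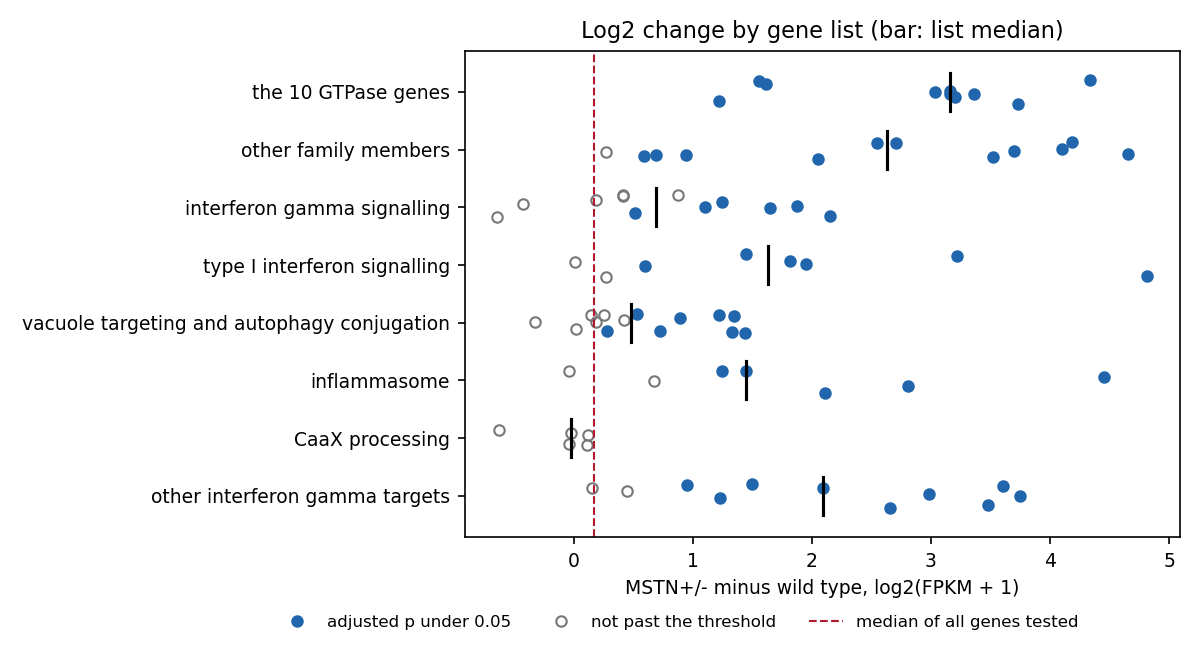
Log2 change of each tested gene, MSTN+/- minus wild type on the log2(FPKM + 1) scale, by gene list, with the list median as a bar and the median of all genes tested as a dashed line. Filled points passed the limma threshold. The 10 GTPase genes have a median of 3.16, the other family members 2.63 and the CaaX processing genes -0.02.

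Of the genes that act with or after the GTPases, some passed the test. The autophagy conjugation proteins load GBPs and IRGs onto vacuoles, and of 14 tested genes of this list 8 were higher and 0 lower (0 lower also at an unadjusted p under 0.05, limma), with a median log2 change of 0.48. Over all genes tested 31.8% were higher and 12.8% lower. Without WT2 the count was 6 higher, as it was without WT3, and both times Gabarap and Traf6 lost their calls. Of all genes tested, 25.2% were higher without WT2 and 24.8% without WT3. Traf6 also lost its call under all 3 scalings. Against WT1 alone the log2 change was -0.02 for Gabarap, 0.21 for Map1lc3a and 0.25 for Sqstm1. Map1lc3b averaged 117 ± 9.05 FPKM in MSTN+/- libraries (SD, n = 7), against 50.8 ± 14.8 FPKM in wild-type ones (SD, n = 3) (limma adjusted p = 0.000169), and Gabarapl1 averaged 68.3 ± 8.51 FPKM in MSTN+/- libraries, against 27.1 ± 8.27 FPKM in wild-type ones (limma adjusted p = 0.000193). Atg7 had a log2 difference of 0.53 (limma adjusted p = 0.00248), which with quantile normalization was 0.24 and not called. In the inflammasome list 5 of 7 tested genes were higher and 0 lower (0 lower also at an unadjusted p under 0.05, limma), with a median of 1.44. Gsdmd, whose product forms pores in the cell membrane, was between 21.2 and 25.9 FPKM across MSTN+/- libraries, against 3.64 (WT1), 2.78 (WT2) and 1.52 FPKM (WT3) (limma adjusted p = 1.02e-06). Casp1, the inflammasome protease gene, was between 0.87 and 2.15 FPKM across MSTN+/- libraries, against 0 (WT1), 0 (WT2) and 0.07 FPKM (WT3) (limma adjusted p = 0.000332), and the cytokine gene Il18 averaged 4.23 ± 0.81 FPKM in MSTN+/- libraries, against 0.22 ± 0.28 FPKM in wild-type ones (limma adjusted p = 1.13e-05). Aim2 and Pycard were called lower without WT1, with log2 changes of -1.19 and -0.43, where 4449 of 13965 genes tested were called lower. Against WT1 alone their log2 changes were 2.25 and 2.89.

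Enzymes that attach and process the lipid anchor of some GBPs did not pass the threshold. Of 5 tested, 0 were higher and 0 lower (1 lower at an unadjusted p under 0.05, Fntb, limma), with a median log2 change of -0.02. Over all genes tested 31.8% were higher and 12.8% lower. Fntb, a farnesyltransferase subunit gene, was between 15.4 and 20.4 FPKM across MSTN+/- libraries, with WT1 at 15.5, WT2 at 38.1 and WT3 at 37.4 FPKM (log2 change -0.63, limma adjusted p = 0.0557). Without WT1 it was called lower, with a log2 difference of -1.04, as were 4449 of 13965 genes tested. It was also called lower under all 3 scalings. Rce1 and Icmt had log2 changes of 0.12 and 0.12 (limma adjusted p = 0.371 and 0.473), and Icmt was called higher without WT1, with a log2 difference of 0.28.

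Other textbook targets of interferon gamma were mostly higher. Of 11 tested, 9 were higher and 0 lower (0 lower also at an unadjusted p under 0.05, limma), with a median log2 change of 2.09. Over all genes tested 31.8% were higher and 12.8% lower. With quantile normalization 7 were higher, beside 20.5% of all genes tested, and Cxcl9 and Cd274 lost their calls (limma adjusted p = 0.0631 and 0.150). Icam1 was called lower without WT1 (log2 change -0.50, limma adjusted p = 0.00878), as were 4449 of 13965 genes tested. Over the alternatives its log2 change ran from -0.50 to 1.45. The peptide transporter genes Tap1 and Tap2 had 44.2 ± 4.98 and 22.1 ± 2.29 FPKM (SD, n = 7) in MSTN+/- libraries, against 4.89 ± 1.98 and 2.70 ± 0.83 FPKM (SD, n = 3) in wild type, log2 changes of 2.98 and 2.66 (limma adjusted p = 1.18e-06 and 6.41e-07). Nlrc5, a coactivator of major histocompatibility complex class I genes, was between 3.62 and 5.33 FPKM across MSTN+/- libraries, against 0.22 (WT1), 0.39 (WT2) and 0.11 FPKM (WT3) (limma adjusted p = 4.17e-06). Its relative Ciita, the class II coactivator, was between 0 and 0.04 FPKM across MSTN+/- libraries, against 0 to 0.02 FPKM in wild-type ones.

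Likeness of profile was measured as the root mean square difference, over the 10 libraries, between a gene's centred log2(FPKM + 1) values and the median centred profile of the 10 genes, among 10364 genes that averaged 5 FPKM or more in either group. The closest gene outside the 10 was Xaf1, an interferon-induced apoptosis gene, with a difference of 0.16 log2 units, between 18.5 and 35.5 FPKM across MSTN+/- libraries, against 0.65 (WT1), 5.69 (WT2) and 2.09 FPKM (WT3). Next were Gbp9 (0.18), the nucleotide kinase gene Cmpk2 (0.19), Mlkl, which encodes the pore protein of necroptosis (0.20), and the RNA sensor gene Ifih1 (0.20). The median of all candidates was 1.44. Within the 10, Gbp2, Irgm2 and Gbp6 were closest to the median profile, at 0.12, 0.18 and 0.18, and Gbp4 was farthest, at 0.86, a measure that also counts the size of a difference.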

How the data were processed

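RNA libraries labelled as cattle muscle had been sequenced by the authors, per the labels' protocols with standard Illumina preparation. The deposited table gives FPKM (fragments scaled by transcript length and library size), per the file headers, rounded to 2 decimals. The aligner, counting method and genome build were not given in the sources used here. Groups came from the genotype label. Replicate numbers follow the order of the sample records and pair nothing. Columns were matched by library title, and 0 were unused. Total depth is unknown. By the step that 1 fragment makes in low genes with 1 transcript, relative depth ran from 1 (MSTN+/- replicate 1) to 1.20, from a search that could return small ratios only.

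The main fit used limma 3.58.1 in R 4.3.3 with an intensity trend, on log2(FPKM + 1). A gene needed at least 1 FPKM in 3 libraries. The adjustment was by Benjamini-Hochberg over all 14047 genes and a threshold of 0.05. Changes of low genes are understated. No count test was run. On simulated data for this comparison (13749 genes), 56%, 92%, 98% and 94% of 50 genes changed by 1, 2, 3 and 4 on the log2 scale were recovered. The simulation gave both groups the same spread for each gene and changed few genes, none of them at low levels. These rates therefore say nothing on low genes, on unequal spread or on data where many genes differ. The 10 genes and the lists were chosen with earlier results of these data known. Named were the 10 genes, up to 3 genes with the smallest p of each list, genes of ligands, receptors and kinases, IRF1, the 5 genes most alike in profile, and defining markers. Other names were chosen after their values were seen. Alternatives were 3 scalings, a pseudocount of 0.1, 2 filters, robust empirical Bayes, library weights, leaving out each library, and wild-type replicate 1 alone. Figures were drawn with matplotlib 3.10.9. No sequence is shown. A gene that the rule names is not reported here.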

Additional observations from a re-analysis of the deposited data

How the results depend on the processing

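The 10 GTPase genes kept a positive log2 change, MSTN+/- minus wild type, under all 19 alternatives, except that Gbp4 and Gbp5 were not tested with the filter at a mean of at least 5 FPKM, where 8 of 8 tested were called. Of the 10, 9 to 10 were called when 1 library was left out, the lost call being that of Irgm1 (adjusted p = 0.0700). Genes called higher over the whole table numbered 4468, and 2874 with quantile normalization. Genes called lower numbered 1800, and 3230 with median-of-ratios scaling, 3851 with quantile normalization, 3368 with library weights, and 791 to 4449 when 1 library was left out (793 without wild-type replicate 2, 791 without replicate 3, 4449 without replicate 1). Pathway genes called lower numbered 0, and 3 with median-of-ratios scaling, TPM rescaling or library weights (Atg16l1, Fntb, Ptpn2), 4 with quantile normalization (also Pggt1b), 1 at a mean of at least 5 FPKM (Ptpn2), 1 against wild-type replicate 1 alone (Jak1), and 0 to 7 when 1 library was left out (7 without wild-type replicate 1, 1 without MSTN+/- replicate 4). The cause was not tested. No paired analysis was possible because the labels carry no replicate numbers. Depth is unknown, so no limit can be set for genes listed at 0.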

Other observations

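The gene ontology terms in the authors' deposited table, looked up after the values were seen, gave 1 or both of 2 interferon terms for 6 of the 10 GTPase genes, and neither for Gbp7, Irgm1, Irgm2 and Igtp. Response to interferon-beta was given for 5 of the 10 (Gbp2, Gbp3, Gbp4, Gbp6 and Iigp1) and response to interferon-gamma for 4 (Gbp2, Gbp4, Gbp5 and Gbp6). Of the other rows with the interferon-beta term, 14 were tested, and 13 were higher and 0 lower in MSTN+/- (limma, adjusted p under 0.05), with a median log2 change of 3.31. Of the other rows with the interferon-gamma term, 11 were tested, and 5 were higher and 1 lower, with a median of 0.98. Of the other rows with the term guanyl ribonucleotide binding, 288 were tested, and 103 were higher and 42 lower, with a median of 0.22. A further 3 terms were looked up. Of the other rows tested with response to protozoan, 2 of 4 were higher and 1 lower (median 1.43). With defense response to bacterium, 12 of 24 were higher and 2 lower (median 0.97). With vacuolar membrane, 12 of 30 were higher and 0 lower (median 0.39). Over all genes tested 31.8% were higher and 12.8% lower, and the median was 0.17. The difference between the terms was not tested.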
